A study of Mus musculus with 6 samples.

Results

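The Hox genes are the homeobox transcription factor genes that give cells along the body axis their positional identity. All 39 protein-coding members in the mouse annotation, chosen by symbol alone (Hoxa, Hoxb, Hoxc or Hoxd followed by a number), were found among the 49671 genes of the count table. They comprised 11 Hoxa, 10 Hoxb, 9 Hoxc and 9 Hoxd genes. The libraries came from preadipocytes of the inguinal white fat of C57BL/6 mice with floxed Tcf7l2 (Tcf7l2 F/F), aged 3 months, sorted by CD34, Sca1 and CD29 without the cells positive for CD31, CD45 or Ter-119. The cells were immortalized with retroviral SV40 large T antigen and carried retroviral CreERT2, a Cre recombinase that becomes active when 4-hydroxytamoxifen is added. Cells of the control group (3 libraries, genotype label wild type) received ethanol, and cells of the knockout group (3 libraries, genotype label Tcf7l2 knockout) received 4-hydroxytamoxifen, each for 24 h starting 2 days before differentiation with dexamethasone, isobutylmethylxanthine and insulin to day 8. The floxed alleles, large T antigen and CreERT2 were therefore common to both groups, and only the knockout group received 4-hydroxytamoxifen, so the deletion and the drug cannot be told apart. The differentiation label also names an agent at 5 nM, written W1929 for the first control library and rising by 1 with each library to W1934 for the last knockout library. Whether replicates were separate cultures, and whether the line was 1 clone, is not stated in the labels. The p-values therefore reflect only the scatter among these 6 libraries, and that scatter may be technical.

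In mammals the Hox genes lie in 4 clusters that arose from an ancestral one, and genes at corresponding places in the clusters form paralog groups, numbered from 1 at the anterior end to 13 at the posterior end. Low-numbered genes are used toward the head and high-numbered genes toward the tail and the ends of the limbs, and adult fibroblasts and fat cell precursors keep a depot-specific set of active Hox genes. Hox proteins bind DNA together with cofactors of the TALE class (Pbx, Meis). Polycomb complexes keep inactive Hox genes silent and trithorax complexes keep active ones on. TCF7L2 is a DNA-binding partner of beta-catenin in Wnt signalling, and Wnt signals are among the inputs that set Hox expression in the embryo.

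Each library held between 26621293 and 33484764 counts. The second principal component of all tested genes was negative in control replicate 3 (-8.54) and knockout replicate 2 (-11.4) and positive in the remaining 4 libraries. Tcf7l2 itself was at 7.71, 6.13 and 9.11 CPM (counts scaled to library size with TMM) in control and 5.65, 6.85 and 5.86 CPM in knockout libraries and did not pass the threshold (log2 fold change of -0.32 with an SE of 0.14; adjusted p = 0.125 by edgeR), and a whole-gene count cannot show whether an exon was removed. The adipocyte markers Adipoq, Plin1, Fabp4, Cidec, Lep, Pparg and Cebpa were all called higher in knockout cells (7 of 7). Over all tested genes 11.9% were called higher. The levels of these markers summed to between 5604 and 5883 CPM per control library and between 8104 and 9847 CPM per knockout library. The 8 preadipocyte and mesenchymal markers summed to 3816 to 4218 CPM and 3779 to 4387 CPM, and 1 of them, Thy1, was called lower. These sums hide opposite moves. Among those not called, Ly6a was higher in knockout (means 671 and 918 CPM), and Pdgfra (1247 and 1135) and Itgb1 (1111 and 1031) lower, all without overlap. Col1a1 was at 1097 CPM in knockout replicate 2 and at 463 and 575 CPM in knockout replicates 1 and 3. Of the immune markers Cd3e and Adgre1 had 0 counts in every library, and the endothelial markers Pecam1 and Cdh5 were near 0 while Kdr was called higher (endothelial sums 23.5 to 25.6 and 26.9 to 28.3 CPM). The 6 immune markers summed to 1.17 to 1.64 CPM in control and 1.57 to 2.07 CPM in knockout libraries, nearly all of it Cd68, and muscle, epithelial and red cell markers summed to less than 2 CPM each in every library. The part that the larger adipocyte marker signal in knockout libraries plays in the differences given below was not tested.

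The most abundant Hox genes of these cells belonged to paralog groups 6 to 10 of the Hoxa, Hoxb and Hoxc clusters. The Hoxd genes had few or 0 counts. To compare genes, CPM were divided by the length of all annotated exons of a gene in kilobases (kb), which counts the exons of every isoform, whether or not it is used in these cells. On this scale, as means over the 6 libraries, the order was Hoxc6 (9.75 CPM per kb), Hoxc8 (9.03), Hoxb7 (7.80), Hoxa10 (6.91), Hoxc9 (6.67), Hoxb9 (6.58), Hoxc10 (5.64), Hoxa9 (5.12) and Hoxb6 (4.67). These 9 genes, all of paralog groups 6 to 10, made up 74.0% of the summed CPM per kb of the 39 genes. Their place among all 14946 tested genes ran from the 50.3rd percentile (Hoxb6) to the 68.3rd (Hoxc6), so that the most abundant Hox messenger RNAs were of middling abundance.

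**Figure D1:**
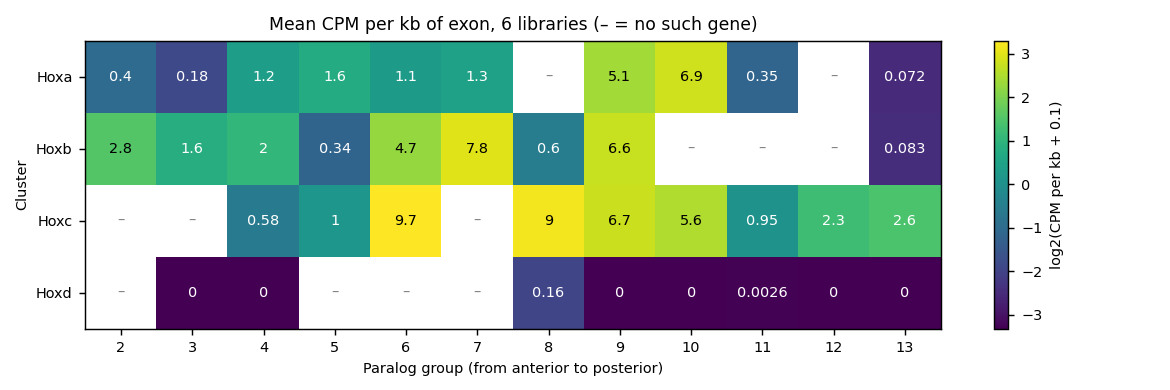
Mean level of each Hox gene over the 6 libraries, in CPM per kb of exon, with the 4 clusters as rows and the paralog groups 2 to 13 as columns; colour is log2(CPM per kb + 0.1) and a dash marks a gene that mice do not have. The 9 highest levels, from 4.67 (Hoxb6) to 9.75 (Hoxc6), lie in groups 6 to 10, which also hold lower genes such as Hoxb8 (0.599), Hoxc13 stands at 2.59, and the Hoxd row is at or near 0.

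The posterior ends of the clusters were at different levels. In the Hoxc cluster (GRCm38 chromosome 15, 102921103 to 103036852) the 3 most posterior genes were detected in every library: Hoxc11 at 0.955, Hoxc12 at 2.27 and Hoxc13 at 2.59 CPM per kb. In the Hoxa cluster (chromosome 6, 52155590 to 52260880) the level dropped beyond Hoxa10, to 0.348 CPM per kb for Hoxa11 and 0.0723 for Hoxa13, the gene of the distal limb and urogenital tract, which had 2 to 9 counts per library. In the Hoxb cluster (chromosome 11, 96194316 to 96368256) Hoxb9 was the last well expressed gene, and Hoxb13, which lies apart from the rest of its cluster, had 3 to 7 counts. At the anterior end Hoxb1, a hindbrain gene, had 0 or 1 count, whereas Hoxb2 reached 2.76 CPM per kb. Within the clusters the profile was not smooth: Hoxb5 (0.342 CPM per kb) and Hoxb8 (0.599) were far below their neighbours Hoxb6, Hoxb7 and Hoxb9.

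In the Hoxd cluster (chromosome 2, 74668310 to 74765142) 6 of the 9 genes, Hoxd3, Hoxd4, Hoxd9, Hoxd10, Hoxd12 and Hoxd13, had 0 counts in every library. A count of 0 allows up to 3 counts, or 0.0893 to 0.113 CPM depending on the library, and covers counting error only. Hoxd3 and Hoxd4 share 53.1% and 39.1% of their exonic bases with Gm28230 on the same strand, which also had 0 counts. How reads over shared bases were counted is not given in the sources used here, so the 0 counts of Hoxd3 and Hoxd4 are less certain. Hoxd1 and Hoxd11 had 2 counts each over all libraries. Hoxd8 was the exception, with 20, 11 and 12 counts in control and 13, 6 and 16 counts in knockout libraries. Of the 82 counts of the whole cluster, Hoxd8 held 78. The paralogs of the genes at 0 were detected in the other clusters: Hoxa9, Hoxb9 and Hoxc9 at 5.12, 6.58 and 6.67 CPM per kb against 0 for Hoxd9, and Hoxa10 and Hoxc10 at 6.91 and 5.64 against 0 for Hoxd10. The long noncoding gene Haglr, on the strand opposite to Hoxd3, also had 0 counts in every library.

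Promoter sequences are shown for 3 genes that mark the ends of this pattern: Hoxd8, the detected Hoxd gene, Hoxd10, which had 0 counts, and Hoxa9, the gene with the clearest difference between the groups. Each is the 250 bases before the RefSeq transcript start on GRCm38.p6, read 5′ to 3′ on the gene's strand, with matches to the TCF/LEF core motif (CTTTGAT, or ATCAAAG on the other strand) in capitals. The windows are chr2:74704365-74704614 (plus strand, Hoxd8), chr2:74691641-74691890 (plus strand, Hoxd10) and chr6:52227371-52227620 (minus strand, Hoxa9), and none overlaps an annotated exon. The Hoxa9 window lies within the annotated span of Hoxa9, between its exons.
Hoxd8: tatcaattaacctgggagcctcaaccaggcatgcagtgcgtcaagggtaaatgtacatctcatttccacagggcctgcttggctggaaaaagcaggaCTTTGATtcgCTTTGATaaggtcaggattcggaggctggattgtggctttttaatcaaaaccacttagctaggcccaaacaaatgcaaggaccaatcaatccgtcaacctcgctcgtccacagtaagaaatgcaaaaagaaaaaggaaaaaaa
Hoxd10: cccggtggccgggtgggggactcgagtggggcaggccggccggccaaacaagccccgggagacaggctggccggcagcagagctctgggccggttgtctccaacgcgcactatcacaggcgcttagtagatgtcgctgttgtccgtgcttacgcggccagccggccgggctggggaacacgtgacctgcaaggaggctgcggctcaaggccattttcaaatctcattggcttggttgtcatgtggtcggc
Hoxa9: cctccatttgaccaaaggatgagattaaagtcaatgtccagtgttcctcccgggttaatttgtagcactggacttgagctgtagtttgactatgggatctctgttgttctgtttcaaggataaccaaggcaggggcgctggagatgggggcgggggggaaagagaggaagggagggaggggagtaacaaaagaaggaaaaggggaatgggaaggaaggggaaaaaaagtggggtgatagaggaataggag
The Hoxd8 window held 2 copies of the motif, starting 153 and 143 bases before the transcript start, and the windows of Hoxd10 and Hoxa9 held none. RefSeq promoters were at hand for 22 of the 39 genes (24 windows). Hoxd8 had the only window with the motif, which 3.21% of 32851 promoters of all genes held. All Hoxd genes had a window, but of the Hoxb genes only Hoxb1, Hoxb4 and Hoxb8 did, and of the Hoxc genes only Hoxc4. The called gene Hoxa4 had none, nor had the abundant genes Hoxc6, Hoxc8, Hoxb7, Hoxc9, Hoxb9, Hoxc10 and Hoxb6. The motif and CpG counts given here do not cover the genes without a window. Hoxd8 itself was not called between the groups (log2 fold change of -0.28 with an SE of 0.38; adjusted p = 0.649 by edgeR). A retinoic acid receptor core motif (AGGTCA, or TGACCT on the other strand) was in 6 of the 24 windows and in 14% of all promoters, and the Hox-Pbx motif TGATTNAT (ATNAATCA on the other strand) in 2 of 24 and in 2.82%. CpG dinucleotides in the windows ranged from 2 to 35, with a median of 13 for the 11 windows of genes too low to test and 12 for the 13 windows of tested genes, against 6 over all promoters. The ranges of CpG counts overlapped, 2 to 35 in the windows of untested and 3 to 28 in those of tested genes.

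**Figure D2:**
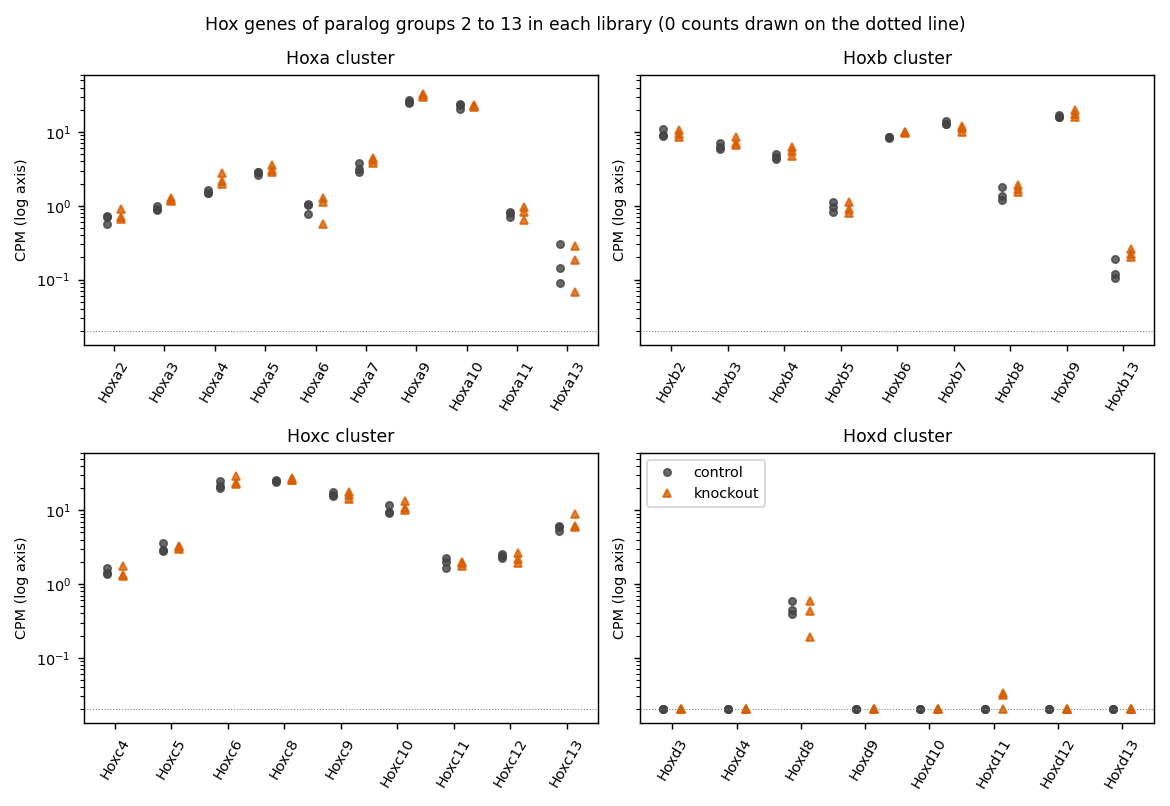
CPM of the Hox genes of paralog groups 2 to 13 in each of the 3 control (circles) and 3 knockout (triangles) libraries on a log axis, by cluster in paralog order; libraries with 0 counts are drawn on the dotted line. The groups lie close together at the genes shown compared with the differences between genes, and most Hoxd genes lie on the dotted line.

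The comparison of knockout with control cells called few Hox genes. The median size of the log2 fold change was not smaller in tested Hox genes (0.18) than in all tested genes (0.14). Of the tested Hox genes, 5 were under 1 CPM on average, which limits what can be called among them, and 23 were at 1 CPM or more. The part that low counts play in the number called was not tested. The 11 genes too low to test had at most 9 counts in any library of either group. Of the 39 genes, 28 passed the filter on low counts and 2 of these were called (edgeR, Benjamini-Hochberg adjusted p under 0.05 over all 14946 tested genes), Hoxa9 and Hoxa4, both higher in knockout cells. This is 7.14% of the tested Hox genes, beside 22.4% of all tested genes. For calls in the higher direction the share over all tested genes was 11.9%, and in the lower direction 10.5%. In edgeR 0 Hox genes were called lower, with 1 (Hoxb7) lower at an unadjusted p under 0.05, and DESeq2 and limma-voom also called 0 lower. DESeq2 called 1 Hox gene, Hoxa9, among 27 with an adjusted p (19.8% of all such genes called), and limma-voom called 2 of 28 (22% of all tested genes). In bulk samples such as these a difference in the number of cells expressing a gene and one in RNA per cell cannot be told apart.

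Hoxa9, a posterior gene also used in blood progenitors (ENSMUSG00000038227, GRCm38 chromosome 6, 52223100 to 52231089, minus strand), was at 25.3, 27.1 and 24.9 CPM in control libraries and at 31.2, 32.6 and 30.1 CPM in knockout libraries. Every knockout library lay above every control library. The means were 25.8 ± 1.19 and 31.3 ± 1.23 CPM (SD, n = 3 each), a rise of 1.22-fold (log2 fold change of 0.28 with an SE of 0.063; adjusted p = 0.00566 by edgeR). Hoxa9 was called under all 14 alternative fits, which include leaving out each library, with adjusted p of 0.000799 to 0.0384.

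Hoxa4, an anterior gene that shares 16% of its exonic bases with the opposite-strand Gm29430 (0 to 2 counts per library), was at 1.49, 1.49 and 1.62 CPM in control and at 1.97, 2.77 and 2.17 CPM in knockout libraries. The groups did not overlap, and knockout replicate 2 was the highest. The means were 1.53 ± 0.0757 and 2.30 ± 0.416 CPM (SD, n = 3 each), a rise of 1.51-fold (log2 fold change of 0.59 with an SE of 0.18; adjusted p = 0.0271 by edgeR). Hoxa4 rested on 42 to 87 counts per library and was not called by DESeq2 (adjusted p = 0.101), nor without knockout replicate 2 (log2 fold change 0.43, adjusted p = 0.119), knockout replicate 3 (0.0549), control replicate 1 (0.102) or control replicate 2 (0.0871), nor without control replicate 3 and knockout replicate 2 together (0.117).

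**Figure D3:**
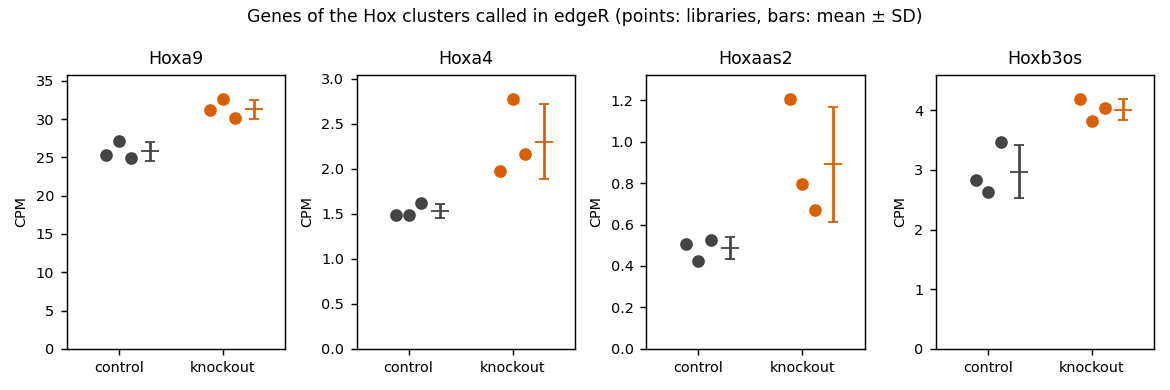
CPM in each library (points), with the mean and SD (bars), of the 4 genes of the Hox clusters called between the groups: Hoxa9, Hoxa4 and the noncoding Hoxaas2 and Hoxb3os. In all 4 the lowest knockout library lies above the highest control library.

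The other Hoxa genes, which were not called, mostly had a log2 fold change above 0. Hoxa7 was at 3.78, 2.87 and 3.13 CPM in control and 3.85, 4.20 and 4.44 CPM in knockout libraries (log2 fold change of 0.34 with an SE of 0.14; adjusted p = 0.0926 by edgeR). Hoxa3, of the pharyngeal arches, was at 0.864, 0.992 and 0.904 CPM in control and 1.17, 1.27 and 1.19 CPM in knockout libraries (log2 fold change of 0.40 with an SE of 0.20; adjusted p = 0.166 by edgeR). The groups did not overlap for either gene, although neither passed the threshold. Hoxa10 was at 23.1, 20.7 and 24.3 CPM and at 21.5, 22.6 and 23.4 CPM. The Hoxa10 difference (log2 fold change -0.013, SE 0.074) thus stood beside a rise of Hoxa9, its direct neighbour in the cluster, of 0.28 (SE 0.063). Hoxa5, which has a known role in lung and axial patterning, was at 2.83, 2.62 and 2.90 CPM and at 2.84, 3.599 and 3.03 CPM, and the groups overlapped. Hoxa2, Hoxa6 and Hoxa11 were under 1 CPM on average and had log2 fold changes of 0.19, 0.068 and 0.048.

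Among the Hoxb genes, 0 of 8 tested were called in edgeR, beside 22.4% of all tested genes, and DESeq2 and limma-voom also called 0. In edgeR 2 had an unadjusted p under 0.05, Hoxb6 higher and Hoxb7 lower. Hoxb7 had the lowest log2 fold change of the cluster, at 12.6, 13.9 and 12.7 CPM in control and 9.97, 11.2 and 11.9 CPM in knockout libraries (log2 fold change of -0.25 with an SE of 0.090; adjusted p = 0.0674 by edgeR). Its neighbour Hoxb6 was at 8.58, 8.61 and 8.40 CPM in control and 9.97, 9.94 and 9.60 CPM in knockout libraries (log2 fold change of 0.21 with an SE of 0.084; adjusted p = 0.09995 by edgeR). In both genes the groups did not overlap, in opposite directions, and neither was called under any of the 14 alternatives. Hoxb9, the most abundant Hoxb gene in CPM, was at 15.9, 16.2 and 16.7 CPM and at 15.7, 19.7 and 17.3 CPM. Hoxb2 was at 10.99, 9.21 and 8.81 CPM and at 10.7, 9.52 and 8.51 CPM. Hoxb3 was at 6.34, 5.95 and 7.04 CPM and at 6.69, 8.60 and 7.13 CPM. These 3 genes overlapped between the groups, with knockout replicate 2 the highest library for Hoxb9 and Hoxb3. Hoxb4, known from blood stem cells, was at 4.64, 4.99 and 4.37 CPM and at 4.78, 5.48 and 6.24 CPM, and Hoxb8 at 1.34, 1.20 and 1.81 CPM and at 1.67, 1.91 and 1.53 CPM. Hoxb5 was under 1 CPM (log2 fold change -0.032).

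Among the Hoxc genes, the most abundant cluster, 0 of 9 were called in edgeR, beside 22.4% of all tested genes. DESeq2 and limma-voom also called 0. In edgeR 0 had an unadjusted p under 0.05, and the adjusted p were 0.2195 and above. Hoxc8, a gene of the thoracic region, was at 24.2, 24.6 and 25.6 CPM in control and at 27.5, 25.7 and 25.7 CPM in knockout libraries (log2 fold change 0.085, SE 0.063), just without overlap. Hoxc6 was at 20.01, 21.2 and 24.7 CPM and at 22.4, 28.8 and 23.7 CPM. Hoxc9 was at 15.6, 15.9 and 17.5 CPM and at 14.3, 17.6 and 16.3 CPM. Both overlapped between the groups, as did every other Hoxc gene. Hoxc10, a gene of the lumbosacral region, was at 9.56, 9.18 and 11.7 CPM and at 10.0, 13.4 and 10.8 CPM. Hoxc13, which is used in hair and nails, was at 5.18, 6.02 and 6.14 CPM and at 5.99, 8.89 and 6.05 CPM. For Hoxc10 and Hoxc13 knockout replicate 2 alone stood above the remaining libraries. Hoxc12 was at 2.26, 2.55 and 2.41 CPM and at 2.68, 2.20 and 1.94 CPM, and Hoxc11 at 2.26, 1.67 and 2.00 CPM and at 1.74, 1.98 and 1.94 CPM. Hoxc5 was at 2.89, 2.76 and 3.62 CPM and at 3.18, 3.25 and 3.03 CPM, and Hoxc4 at 1.67, 1.38 and 1.43 CPM and at 1.30, 1.78 and 1.34 CPM. Hoxc5 shares 5.37% of its exonic bases with Hoxc10 on the same strand.

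**Figure D4:**
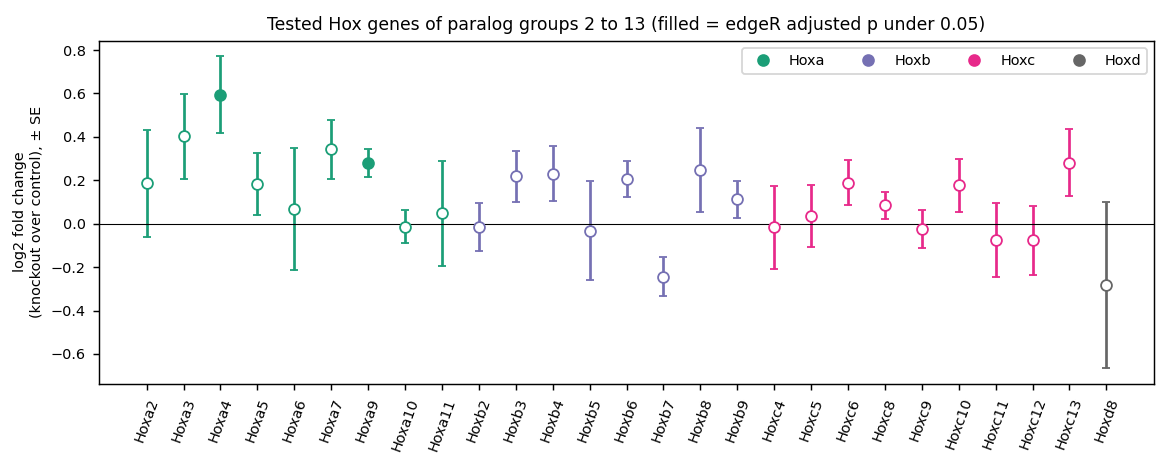
Log2 fold change of knockout over control, with its SE, for the tested Hox genes of paralog groups 2 to 13 in cluster and paralog order; filled points passed the threshold in edgeR. The filled points are Hoxa9 (0.28) and Hoxa4 (0.59); the lowest value is that of Hoxd8 (-0.28).

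Over the 28 tested genes the log2 fold changes ran from -0.28 to 0.59 with a median of 0.14, beside a median of -0.0017 over all tested genes, and 19 of them (67.9%) were above 0, beside 49.7% of all. By cluster, 9 of 10 Hoxa, 5 of 8 Hoxb, 5 of 9 Hoxc and 0 of 1 Hoxd genes were above 0. The groups did not overlap for 7 of 28 genes (25%), beside 37.9% of all tested genes. Knockout was the higher group for 6 of the 28 (21.4%), beside 18.5% of all tested genes. The median size of the log2 fold change was 0.18, beside 0.14 over all tested genes. Knockout replicate 2 was the highest of the 6 libraries for 14 of the 28 genes, beside 20.3% of all tested genes. Without this library the median log2 fold change of the Hox genes was 0.054. Among genes with an average log2 CPM of 3 to 5, the 10 Hox genes had a median biological coefficient of variation of 6.64% and all 3954 tested genes 6.06%, and 1 of the 10 was called, beside 21.1% of the 3954.

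Summed over a cluster, the Hoxa genes held 61.1, 59.5 and 62.1 CPM in control and 66.3, 71.6 and 68.8 CPM in knockout libraries. This was 1.13-fold higher without overlap between the groups (60.9 ± 1.31 and 68.9 ± 2.69 CPM, SD, n = 3 each; exact 2-sided permutation p = 0.1, the smallest that 3 libraries against 3 can give), and Hoxa9 made up 69.0% of the difference. The Hoxb sums were 61.5, 61.0 and 61.2 CPM and 60.5, 67.7 and 63.4 CPM, and the Hoxc sums 83.7, 85.3 and 95.02 CPM and 89.2, 103.5 and 90.8 CPM. Both overlapped between the groups (exact permutation p = 0.4 each). The Hoxd sums were 0.595, 0.425 and 0.452 CPM and 0.468, 0.223 and 0.635 CPM (exact permutation p = 0.9). All 39 genes together held 211 ± 7.04 CPM in the control and 228 ± 13.8 CPM in the knockout group (SD, n = 3 each; exact permutation p = 0.2).

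Of the 46 other genes annotated inside the clusters, most of them noncoding, 9 were tested and 2 of these were called (22.2%, beside 22.4% of all tested genes), Hoxaas2 and Hoxb3os, both on the strand opposite to Hox genes. Hoxb3os was at 2.83, 2.62 and 3.47 CPM in control and 4.18, 3.82 and 4.03 CPM in knockout libraries, without overlap (log2 fold change of 0.44 with an SE of 0.14; adjusted p = 0.0347 by edgeR). It shares 53.6% of its exonic bases with Hoxb3 and 22.7% with Hoxb2, which were not called, and it was not called in 5 of 14 alternatives (adjusted p of 0.00993 to 0.139). Hoxaas2 was at 0.506, 0.425 and 0.527 CPM and at 1.20, 0.796 and 0.672 CPM, from 12 to 36 counts (log2 fold change of 0.87 with an SE of 0.29; adjusted p = 0.0429 by edgeR). It shares 15% of its exonic bases with Hoxa3 and was called in 7 of 13 alternatives (adjusted p of 0.0275 to 0.194). The kit marks strand, but the strand setting of the counting is not given in the sources used here, so reads of these genes and their partners may be mixed. The same limit holds for Hoxb3 and Hoxb2, which share 52.9% and 27.3% of their exonic bases with Hoxb3os, for Hoxa11 (35% with Hoxa11os) and for Hoxa7 (20.4% with Hoxaas3).

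Hotairm1, a noncoding gene of the Hoxa cluster, was at 1.34, 1.20 and 1.28 CPM in control and 1.87, 1.18 and 2.39 CPM in knockout libraries and was not called (edgeR adjusted p = 0.167). Gm53, between Hoxb13 and Hoxb9, was the most abundant noncoding gene of the clusters in CPM, though not in CPM per kb. It was at 7.03, 8.40 and 7.83 CPM and 8.06, 8.92 and 9.86 CPM (edgeR adjusted p = 0.188). Hoxaas3 was at 1.43, 0.815 and 1.06 CPM and 1.27, 1.27 and 1.34 CPM. Hotair, in the Hoxc cluster, had 1 to 7 counts per library and Hottip, beyond Hoxa13, 0 or 1.

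A further list held the Pbx, Meis, Pknox and Tgif genes of the TALE class, not all of them Hox cofactors, and the non-TALE gene Pbxip1. Of its 12 tested genes, 1 rose, 2 fell and 9 were not called (25% called, beside 22.4% of all tested genes). The median log2 fold change of the list was -0.038. The cofactor gene Meis1 was at 32.4, 30.7 and 30.8 CPM in control libraries and at 28.1, 28.9 and 30.1 CPM in knockout libraries and was not called. Tgif2, a TALE repressor of TGF-beta signalling, fell from 8.66 ± 0.295 to 5.17 ± 0.149 CPM (SD, n = 3 each), 1.68-fold lower, with no overlap (edgeR adjusted p = 7.98e-05). Meis2 fell 1.14-fold from 35.7 ± 1.84 to 31.5 ± 0.621 CPM and Pbx4 rose 1.70-fold from 1.00 ± 0.276 to 1.70 ± 0.341 CPM. Both calls were lost in DESeq2 and on omitting control replicate 1, control replicate 2, knockout replicate 1 or knockout replicate 3, and that of Meis2 also without knockout replicate 2 and with no filter on low counts.

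Of 11 genes of PRC2, the complex that methylates histone H3 on lysine 27, 1 rose, 1 fell and 9 were not called. The share called was 18.2%, with a median log2 fold change of 0.021. Over all tested genes 22.4% were called, a share that also stands beside those of PRC1 and trithorax below. The recruiting subunit gene Jarid2 rose 1.22-fold from 22.9 ± 0.429 to 27.97 ± 0.915 CPM (SD, n = 3 each) and was called under all 14 alternatives, and the histone-binding subunit gene Rbbp4 fell 1.12-fold, a call that was lost on leaving out control replicate 1, control replicate 2 or knockout replicate 3. Of 18 genes of PRC1, which binds that mark and ubiquitylates histone H2A, 1 rose, 4 fell and 13 were not called (27.8%; median -0.054). Rybp fell 1.28-fold from 38.5 ± 0.424 to 30.0 ± 0.524 CPM and was called under all 14 alternatives, the ubiquitin ligase gene Rnf2 fell 1.17-fold, Bmi1 1.13-fold and Cbx6 1.14-fold. The calls of Rnf2, Bmi1 and Cbx6 were each lost on omitting control replicate 1, control replicate 2 or knockout replicate 3, that of Bmi1 also without knockout replicate 2, and that of Cbx6 also without control replicate 3 or knockout replicate 1, in limma-voom and with a filter of 1 CPM in 3 libraries. Of 17 trithorax/MLL and lysine 27 demethylase genes, 1 rose, 2 fell and 14 were not called (17.6%; median 0.014). The shared core subunit gene Wdr5 fell 1.19-fold from 55.1 ± 1.61 to 46.5 ± 2.14 CPM and was called under all 14 alternatives. Psip1, a chromatin tether of MLL, fell 1.18-fold (a call lost on leaving out control replicate 1, control replicate 2 or knockout replicate 3) and the core subunit gene Dpy30 rose 1.159-fold (a call lost in DESeq2 and on leaving out control replicate 1, control replicate 2, knockout replicate 1 or knockout replicate 3).

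Of 24 upstream regulators of Hox genes, 18 were tested, of which 2 rose, 2 fell and 14 were not called (22.2%; median log2 fold change -0.0020). Most genes of this list belong to the retinoic acid pathway, a classical inducer of Hox genes, and the share called was near the 22.4% of all tested genes. The retinaldehyde dehydrogenase gene Aldh1a3 rose 1.81-fold from 4.69 ± 0.240 to 8.50 ± 0.393 CPM (SD, n = 3 each) and the retinoid X receptor gene Rxrg rose 1.73-fold from 9.86 ± 0.995 to 17.1 ± 1.29 CPM. The main embryonic retinaldehyde dehydrogenase gene Aldh1a2 fell 1.29-fold from 32.1 ± 2.46 to 24.9 ± 2.96 CPM and the retinol dehydrogenase gene Rdh10 fell 1.24-fold from 24.9 ± 2.42 to 20.1 ± 0.643 CPM, and only the call of Rdh10 was lost among these 4, without control replicate 2 (edgeR adjusted p = 0.0574, the highest over its alternatives). The Cdx genes, direct inducers of posterior Hox genes in the embryo, were too low to test.

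Of 44 other positional and limb genes of the homeobox, T-box and related families, 28 were tested, of which 5 fell, 0 rose and 23 were not called (17.9% called in edgeR, all lower, beside 22.4% of all tested genes called in either direction and 10.5% called lower; median log2 fold change -0.076). Higher in knockout cells at an unadjusted p under 0.05 were 2, and DESeq2 and limma-voom also called 0 higher. In edgeR 11.9% of all tested genes were called higher. The homeobox gene Alx4 fell 1.65-fold, from 91.8, 80.0 and 98.2 CPM in control to 56.0, 58.6 and 49.2 CPM in knockout libraries (edgeR adjusted p = 9.215e-05). Meox1 fell 1.73-fold from 2.31 ± 0.510 to 1.35 ± 0.133 CPM (SD, n = 3 each; not called without control replicate 1, adjusted p = 0.0704 in edgeR), Msx1 1.36-fold from 17.5 ± 1.63 to 12.8 ± 1.79 CPM, Twist2 1.35-fold from 61.0 ± 3.17 to 45.0 ± 5.67 CPM and Prrx2, named after its values were seen, 1.158-fold. Genes that mark the inguinal and other subcutaneous depots were not called: Tbx15 at 105, 106 and 98.4 CPM in control and 114, 104 and 104 CPM in knockout libraries, Shox2 at 67.6, 65.9 and 60.7 CPM and 64.4, 66.7 and 65.5 CPM, and En1 at 2.92, 3.58 and 3.01 CPM and 2.11, 4.84 and 3.29 CPM. The hindlimb genes Tbx4 and Pitx1 were too low to test, with Tbx4 at 0.106 to 0.149 CPM, while the forelimb gene Tbx5 was at 2.89, 3.15 and 3.24 CPM and 3.04, 3.25 and 2.39 CPM.

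**Figure D5:**
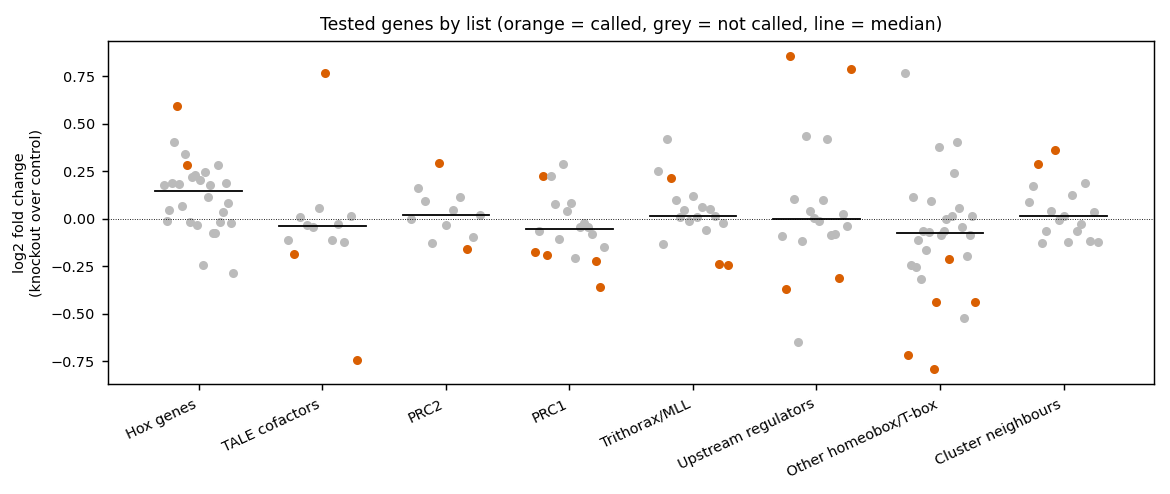
Log2 fold change of knockout over control for the tested members of the Hox genes and of 7 lists of related genes; orange points were called in edgeR, grey points were not, and lines mark medians. The Hox genes have 2 orange points among 28, and the other homeobox and T-box genes have 5, all below 0.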

How the data were processed

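RNA-seq libraries were made from total RNA with a stranded kit after ribosomal RNA removal, per the labels' protocols. The authors deposited raw counts per gene for all 6 libraries, without normalization. Per the submitters' processing notes, which give no roles, the tools were featureCounts 1.5.1, STAR 2.5.2b and DESeq2 1.16.0, on GRCm38. For the counting, neither annotation release nor strand setting is given in the sources used here. Symbols were taken by Ensembl identifier from GENCODE M21, for 49412 of the 49671 genes, and 259 had none. Columns were assigned to libraries by their titles. Genes were filtered with filterByExpr and tested with edgeR 4.0.16 in R 4.3.3 (TMM scaling, robust quasi-likelihood test, group as the only term), with Benjamini-Hochberg adjustment over all 14946 tested genes and a threshold of 0.05. The SE is the log2 fold change divided by the root of the F statistic. DESeq2 1.42.0 and limma-voom (limma 3.58.1), other scalings and filters, a threshold of 0.01 and leaving out libraries were alternatives, and 1 more, without the pair control replicate 3 and knockout replicate 2, was added after seeing the data. The scripts were tested on simulated data. The Hox genes and the gene lists were chosen with earlier results of these data known. Per-library values were given for Hox genes that were called or had a mean of at least 1 CPM, noncoding cluster genes were named where called or at a mean of at least 1 CPM, with well-known ones below that named as well, and listed genes where called, at most 4 per direction and list by size of change. Some genes that this rule names are not reported here. Genes named as not called, and markers, were chosen with their values known. Promoter sequences and motif shares came from RefSeq (GRCm38.p6).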

Additional observations from a re-analysis of the deposited data

How the results depend on the processing

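The number of Hox genes called, 2 and both higher in knockout cells, was 1 with DESeq2's own test, 1 at an adjusted p under 0.01 and 1 without control replicate 3 and knockout replicate 2 together, and 1 to 2 when each library was left out. The gene kept was Hoxa9 in each case. Calls over all tested genes moved too, from 3346 of 14946 as reported to 2797 of 14124 in DESeq2. They were 3957 of 15016 without control replicate 3 and knockout replicate 2 together. With 1 library left out they ran from 2145 of 15151 (control replicate 1) to 3475 of 15153 (knockout replicate 2). The number over all genes at the 0.01 threshold is not given here. Of 324 values of 23 Hox genes under the alternatives, 302 kept their direction and side of the threshold, 7 lost the call and 15 changed sign, and 0 became called. Those that changed sign were not called in any fit: Hoxa10 was at 0.029 without control replicate 3 and knockout replicate 2 together, and leaving out each library gave log2 fold changes of -0.079 to 0.031 for Hoxa10, -0.10 to 0.089 for Hoxb2, -0.18 to 0.078 for Hoxc4, -0.038 to 0.15 for Hoxc5, -0.094 to 0.053 for Hoxc9, -0.19 to 0.045 for Hoxc11 and -0.21 to 0.018 for Hoxc12. The log2 ratio of the Hoxd sums ran from -0.51 to 0.17, the median of the tested Hox genes from 0.054 to 0.20. The cause was not tested. Scalings moved the median of all genes by at most 0.010 in size. Of 374 values of 25 noncoding and listed genes, 67 lost the call and 0 changed sign. No paired analysis was possible because replicates carry no number in the labels that both groups share. Depth limits Hoxa13, Hoxb1, Hoxb13 and the Hoxd genes other than Hoxd8, which had too few counts to test.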

Other observations

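Genes in the regions around the Hox clusters were read as values, and not all of them border a cluster. Hibadh (chromosome 6, 52546228 to 52640389) and Atp5g3 (chromosome 2, 73908447 to 73911326) lie apart from the clusters, with other genes between. Of 23 such neighbours, 17 were tested, of which 2 rose, 0 fell and 15 were not called in edgeR (11.8% called, beside 22.4% of all tested genes). Lower at an unadjusted p under 0.05 were 2, and DESeq2 and limma-voom also called 0 lower. In edgeR 10.5% of all tested genes were called lower and 11.9% higher. Hibadh, a valine breakdown enzyme gene near the Hoxa cluster, rose 1.28-fold from 76.0 ± 1.80 to 97.6 ± 4.53 CPM (SD, n = 3 each; edgeR adjusted p = 0.000165). Atp5g3, an ATP synthase subunit gene near the Hoxd cluster, rose 1.22-fold from 201 ± 5.30 to 245 ± 11.9 CPM (SD, n = 3 each; edgeR adjusted p = 0.000854). Both were called under all 14 alternatives. The homeobox genes Evx1 and Evx2, at the posterior ends of the Hoxa and Hoxd clusters, were at or near 0 in both groups, while Mtx2 and Lnpk, which flank the Hoxd cluster, were at 67.0 and 36.5 CPM in control and 73.0 and 33.6 CPM in knockout cells and were not called.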
